A study of Mus musculus with 2 samples.

Results

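The Tas2r104 to Tas2r107 block is a group of 5 bitter taste receptor genes that lie next to each other on mouse chromosome 6: Tas2r130, Tas2r107, Tas2r106, Tas2r104 and Tas2r105. They were taken by position, as the Tas2r genes between 131629823 and 131687495 of build mm10, a span of 57673 bases that held no other listed Tas2r gene. They are 5 of the 34 Tas2r genes, and of 21888 genes in all, listed in either library. The cells came from adult α-gustducin-GFP mice on a C57BL/6J background, in which GFP marks the cells that express α-gustducin. One library was made from the circumvallate papilla (CV), at the back of the tongue, and 1 from the fungiform papillae (FP), at its front. GFP-positive singlets that excluded the dead-cell dye 7-AAD were sorted in both, captured on beads and sequenced as single cells. The labels name no treatment, and the number of animals behind each library is not given in the sources used here. Sorting was for GFP-positive cells, and barcodes below a limit on the α-gustducin gene were not compared, so the values describe cells that express it.

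With 1 library per papilla there is no replicate. The values below compare these libraries, their intervals cover counting error only, and no test was made. Cells were kept with more than 500 detected genes and with Gnat3, the gene of α-gustducin, above 0.9 on ln(1 + counts per 10000). That left 32 of 61 CV barcodes and 21 of 29 FP barcodes, with no barcode found in both libraries. Kept cells held 32726 to 3447628 counts in CV (median 543963) and 193718 to 3190340 in FP (median 1141644), and 10 CV cells were shallower than any FP cell. The summed level of 10 type II taste cell markers had a median of 18990 CPM (counts in a cell or pool, scaled to a total of 1000000) over CV cells and 22763 CPM over FP cells. The lowest sum was 269 CPM among CV cells, against 5723 CPM among FP cells, and the CV value lies below the median of the CV barcodes left out (765 CPM), so not every kept CV cell showed these markers well. Gnat3, which chose the cells, is one of the 10. Summed keratinocyte markers (11 genes) ran from 0 to 917 CPM in CV cells, with Krt76, Krt16, Krtdap and Krt14 at 0, and from 87.2 to 535 CPM in FP cells, with none at 0. Their part in the results was not tested. Among the CV barcodes was a run of 6 adjoining barcode numbers, of which 5 were kept. Ratios and shares of cells that rest on them are also given without them or with that limit named, and correlations only with them.

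Bitter receptors are G protein-coupled receptors of type II taste cells, each encoded by 1 uninterrupted coding exon. A bound bitter compound activates gustducin, whose βγ subunits act on phospholipase Cβ2, and calcium released through the IP3 receptor opens the cation channel Trpm5. The mouse genes of the family lie largely in clusters on chromosome 6, and circumvallate taste buds are known for more bitter receptor expression than fungiform ones. Tas2r105 is known as the mouse receptor for cycloheximide.

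All members ran on the minus strand, and each had 1 annotated transcript of 1 exon (GENCODE M21, mm10). Tas2r130 (ENSMUSG00000054497) occupied chr6:131629823-131630912. Next came Tas2r107 (ENSMUSG00000053389) at chr6:131659118-131660149, after a gap of 28205 bases. After another 17810 bases lay Tas2r106 (ENSMUSG00000057754) at chr6:131677960-131678886. A gap of 5949 bases separated it from Tas2r104 (ENSMUSG00000061977) at chr6:131684836-131685744. Tas2r105 (ENSMUSG00000051153) at chr6:131686532-131687495 was only 787 bases from Tas2r104. Tas2r106 and Tas2r104 are annotated without a 5′ untranslated region, so their annotated start is the start codon.

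The bases before each annotated start are shown because the members differ in which cells and which papilla they were detected in. Each is given 5′ to 3′ on the minus strand (RefSeq, GRCm38.p6), ending at the base before the annotated start. Capitals mark every base within a 10-base word that also stands upstream of another member. A stretch of capitals can join words shared with different members, as the first stretch of Tas2r106 does with Tas2r107 and Tas2r104.
Tas2r130, chr6:131630913-131631080: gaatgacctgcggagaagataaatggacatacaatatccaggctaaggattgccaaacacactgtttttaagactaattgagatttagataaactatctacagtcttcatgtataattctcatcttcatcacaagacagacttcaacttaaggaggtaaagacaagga
Tas2r107, chr6:131660150-131660399: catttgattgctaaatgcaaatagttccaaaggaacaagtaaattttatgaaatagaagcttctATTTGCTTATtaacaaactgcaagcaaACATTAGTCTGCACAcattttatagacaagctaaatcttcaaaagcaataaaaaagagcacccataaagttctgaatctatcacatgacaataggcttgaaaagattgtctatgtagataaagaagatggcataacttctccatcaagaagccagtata
Tas2r106, chr6:131678887-131679136: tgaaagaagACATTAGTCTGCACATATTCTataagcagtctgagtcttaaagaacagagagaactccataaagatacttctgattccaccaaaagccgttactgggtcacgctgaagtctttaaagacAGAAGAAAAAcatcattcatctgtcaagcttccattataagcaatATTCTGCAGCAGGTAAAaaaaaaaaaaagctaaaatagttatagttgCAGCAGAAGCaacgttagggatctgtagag
Tas2r104, chr6:131685745-131685994: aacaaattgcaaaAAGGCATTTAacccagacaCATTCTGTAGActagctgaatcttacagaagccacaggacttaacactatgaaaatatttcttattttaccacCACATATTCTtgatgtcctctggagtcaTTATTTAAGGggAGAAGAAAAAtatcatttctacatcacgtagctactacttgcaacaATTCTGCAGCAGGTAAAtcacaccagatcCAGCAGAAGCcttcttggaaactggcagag
Tas2r105, chr6:131687496-131687713: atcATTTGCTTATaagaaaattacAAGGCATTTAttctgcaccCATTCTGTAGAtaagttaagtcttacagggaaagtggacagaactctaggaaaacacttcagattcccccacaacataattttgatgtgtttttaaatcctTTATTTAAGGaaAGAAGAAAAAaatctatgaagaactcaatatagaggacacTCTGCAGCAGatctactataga

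Shared 10-base words were densest among the 3 members that lie closest together and absent upstream of Tas2r130. They covered 78 of 250 bases upstream of Tas2r104, 61 of 218 upstream of Tas2r105, 58 of 250 upstream of Tas2r106 and 25 of 250 upstream of Tas2r107, but 0 of 168 upstream of Tas2r130. The stretches are not matched in position. Those of Tas2r106 and Tas2r104 ended at the start codon, and those of Tas2r107, Tas2r130 and Tas2r105 ended 65, 82 and 32 bases before it. Tas2r106 and Tas2r104 shared 11 such words, the longest run being attctgcagcaggtaaa. Tas2r104 and Tas2r105 shared 6 words and were 70.7% identical over a local alignment of 157 columns. Tas2r107 and Tas2r106 shared 6 words, all within the run acattagtctgcaca, and Tas2r107 shared none with Tas2r104. The words tctgcagcag and agaagaaaaa stood upstream of Tas2r106, Tas2r104 and Tas2r105. They occurred in 0.148% and 0.233% of 27025 windows of RefSeq genes, each reaching from 250 bases before to 50 bases after a start.

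The same windows were searched on both strands for 3 short motifs. The octamer ATGCAAAT, a word that POU-family factors such as Pou2f3 bind, occurred in 1.75% of all windows and in 7 of 30 windows of Tas2r genes. Within the windows of the block it stood only upstream of Tas2r107, 236 to 229 bases before the start, at chr6:131660378-131660385. The windows of Tas2r130 and Tas2r105 reached only 168 and 218 bases before their annotated starts, so that distance was not searched there. Those of Tas2r106 and Tas2r104 reached 250 bases before the start codon. Absence from the other members is therefore limited to what their windows cover. The word TATAAA occurred in 14.2% of all windows and 9 of 30 Tas2r windows, and in the block also only upstream of Tas2r107. The E-box CANNTG, found in 72.1% of all windows and 24 of 30 Tas2r windows, occurred in the window of every member except Tas2r104. None of the matches upstream of Tas2r107 overlapped another. These matches describe letters and show no binding.

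The members are paralogs, which bears on how their reads could be told apart. By share of identical columns in a global alignment of whole transcripts, Tas2r104 and Tas2r105 were 70.0% identical, Tas2r106 and Tas2r104 68.5%, and Tas2r107 and Tas2r105 64.9%. Tas2r130 was the most distant, at 57.2% to its closest relative, Tas2r107. The longest identical run within the block was 29 bases, between Tas2r104 (from base 54) and Tas2r105 (from base 86): gctgggagttttagggaacacatttattg. How reads that match several genes were assigned is not given in the sources used here. Tas2r114, named here after its values were seen, lies 1638 bases beyond Tas2r105 and was 70.7% identical to Tas2r104, with a shared run of 33 bases. It had 3 counts in 2 CV cells and was not listed in the FP table, while its relatives Tas2r104 and Tas2r105 had 2749 and 7969 CV counts.

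Members of the block were detected in both papillae, and its members stood in a different order in each. Tas2r107, Tas2r106 and Tas2r104 were higher in CV, Tas2r107 had not a single count in FP, and Tas2r105 was somewhat lower in CV. Summed over the 5 members, pooled kept cells had 875 CPM in CV (25834 counts) and 506 CPM in FP (11455 counts), a ratio of 1.73 (95% interval 1.69 to 1.77). With 10 CPM added to both sides before taking log2, a scale that makes differences of low genes look smaller, CV over FP was 0.78. The 29 other Tas2r genes summed to 1188 CPM in CV and 334 CPM in FP, a ratio of 3.56 (3.47 to 3.65). The block thus made up 42.4% of all Tas2r counts in CV and 60.3% in FP. Over single cells with any Tas2r gene on, its share had a median of 40.5% in 28 CV cells and 70.3% in 13 FP cells.

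Tas2r130, set apart from the other members by the widest gap, had 37.4 CPM in CV (1104 counts) and 18.9 CPM in FP (428 counts), a ratio of 1.98 (1.77 to 2.22) and a log2 ratio of 0.71. One CV cell gave 47.6% of its CV counts, and that cell was one of the adjoining run. Without the run, a comparison added after seeing the data, the log2 ratio was -0.16, so the direction rested on those barcodes.

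Tas2r107 was found in kept cells of CV alone. It had 213 CPM in CV (6296 counts) and 0 counts in FP. Its CV level was 1609-fold a floor of 3 counts over the pooled FP cells. That floor stands for 0.132 CPM in FP and is no confidence bound. The exact Poisson upper limit, from an FP total of 22646953 counts, was higher at 0.163 CPM. No single CV cell held more than 15.9% of its counts, and 1 count of it stood in FP barcodes that the Gnat3 limit had left out.

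Tas2r106 had 261 CPM in CV (7716 counts) and 97.4 CPM in FP (2206 counts), a ratio of 2.68 (2.56 to 2.81) and a log2 ratio of 1.34. Tas2r104 had 93.1 CPM in CV (2749 counts) and 34.97 CPM in FP (792 counts), a ratio of 2.66 (2.46 to 2.88) and a log2 ratio of 1.20. In pooled kept cells these neighbours had nearly the same ratio, and the 2 intervals, of counting error only, overlapped. Not every alternative kept them alike. For the mean of single-cell CPM the log2 ratio was 1.98 for Tas2r106 and 0.75 for Tas2r104. With no Gnat3 limit it was 1.44 and 0.70.

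Tas2r105 had 269.8 CPM in CV (7969 counts) and 354.5 CPM in FP (8029 counts), a ratio of 0.761 (0.738 to 0.785) and a log2 ratio of -0.38. It was the only member lower in CV. The cell with most block counts in each library held much of it: without those cells the log2 ratio was -0.18.

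At least 2-fold higher in CV on log2(CPM + 10) were 3 of 5 members, against 21% of the 10918 genes that reached 10 CPM in CV or FP. Lower in CV by that measure were 0 of 5 members, against 17% of the genes. The median log2 ratio was 1.20 over the members, 1.40 over the 22 other Tas2r genes at that level and 0.05 over all 10918 genes. Of those 22 receptors 18 passed 2-fold on the CV side and 0 on the FP side. The 3 outside the block with the highest sum of both libraries' CPM all sat on that side: Tas2r117 had 204 CPM in CV and 72.6 in FP, Tas2r118 had 175 and 52.4, and Tas2r110 had 94.0 and 41.9.

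**Figure D1:**
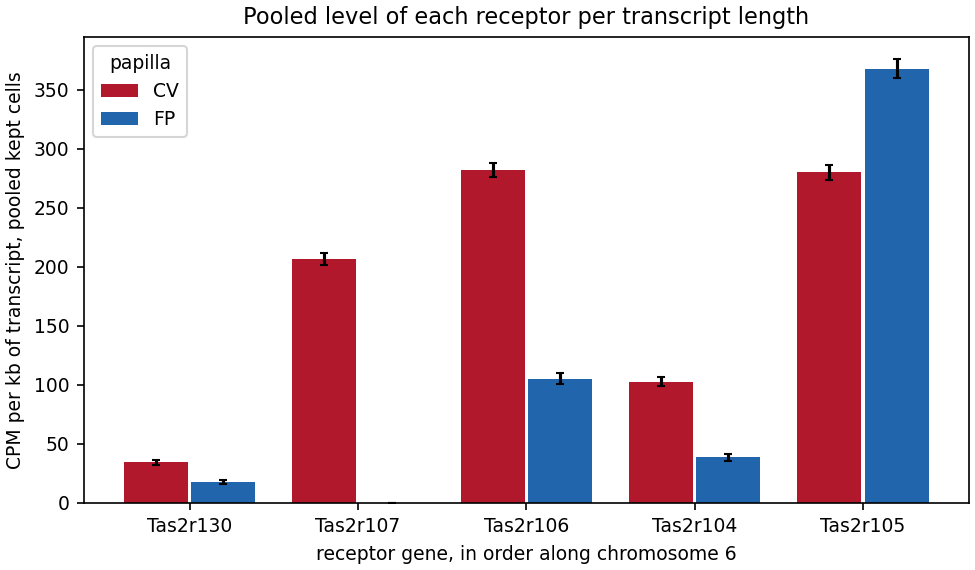
Pooled level of each member in CPM per kb of transcript, for CV and FP kept cells, with exact Poisson 95% intervals that cover counting error only. Tas2r106 (282) and Tas2r105 (280) were level in CV, Tas2r105 stood far above the others in FP (368), and Tas2r107 had no bar in FP.

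Per kilobase of transcript the members could be set against each other within a library, as the plot of pooled levels shows. In CV the order was Tas2r106 with 282 CPM per kb, Tas2r105 with 280, Tas2r107 with 207, Tas2r104 with 102 and Tas2r130 with 34.3. The intervals of the first 2 overlapped (276 to 288 and 274 to 286), and all other neighbours were further apart than counting error. In FP the order was Tas2r105 with 368 CPM per kb, Tas2r106 with 105, Tas2r104 with 38.5, Tas2r130 with 17.3 and Tas2r107 with 0. Tas2r105 gave 30.8% of block counts in CV and 70.1% in FP. With each cell weighted equally both shares were lower, at 15.1% in CV and 58.8% in FP.

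A cell was called on for a member at 50 CPM or more. The nearest values below that level were 49.5 CPM of Tas2r105 and 49.4 CPM of Tas2r104, both in CV cells. Tas2r130 was on in 3 of 32 CV cells (9.38%, 95% interval 1.98 to 25.02) at 183, 389 and 1139 CPM. In FP it was on in 2 of 21 cells (9.52%, 1.17 to 30.4) at 175 and 176 CPM. Of the 3 CV cells 2 belonged to the adjoining run, and without it the CV share was 3.70%. The few cells allow a wide range in each papilla.

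Tas2r107 was on in 17 of 32 CV cells (53.1%, 34.7 to 70.9), at 70.1 to 1120 CPM with a median of 267. It was on in 0 of 21 FP cells, so that by a floor of 3 cells the share could reach 14.3%, and by the exact interval 16.1%. No FP cell had even 1 count of it.

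Tas2r106 was the member found in most CV cells. It was on in 20 of 32 CV cells (62.5%, 43.7 to 78.9), at 55.1 to 8128 CPM with a median of 244, and in 5 of 21 FP cells (23.8%, 8.22 to 47.2), at 136 to 1326 CPM with a median of 464. Fewer FP cells had it, with a higher median level per cell.

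Tas2r104 was on in 14 of 32 CV cells (43.8%, 26.4 to 62.3), at 58.1 to 808 CPM with a median of 105, and in 4 of 21 FP cells (19.05%, 5.45 to 41.9), at 92.6 to 497 CPM with a median of 168. As for Tas2r106, fewer FP cells had it, at a higher median.

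Tas2r105 was on in 14 of 32 CV cells (43.8%, 26.4 to 62.3), at 115 to 841 CPM with a median of 379. In FP it was on in 9 of 21 cells (42.9%, 21.8 to 66.0), at 163 to 1794 CPM with a median of 569.8. The CV share includes the 10 shallow CV cells, none of which had it on. Among CV cells at least as deep as the shallowest FP cell it was on in 63.6%, against 42.9% of FP cells. Among cells of 1000000 counts or more it was on in 78.6% in CV and 53.8% in FP. Its median level among cells with it on was higher in FP.

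Any member was on in 28 of 32 CV cells (87.5%, 71.0 to 96.5) and in 10 of 21 FP cells (47.6%, 25.7 to 70.2). At 1 count or more these became 28 CV cells and 19 FP cells, and at 3 counts or more 28 and 15. Low counts were also present where the receptors should be absent. Of 7 FP barcodes with at least 1000 CPM of keratinocyte markers and Gnat3 below the limit (median total 1679949 counts), 6 had a count of a member, at no more than 4.96 CPM, and 0 had one on. The highest number of counts of a member in them was 10. FP cells with a member below 50 CPM had at most 31.4 CPM, from 9 counts of Tas2r105, which is above the 4.96 CPM of those barcodes. Values below 50 CPM were not called on, and not all of them were single counts.

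**Figure D2:**
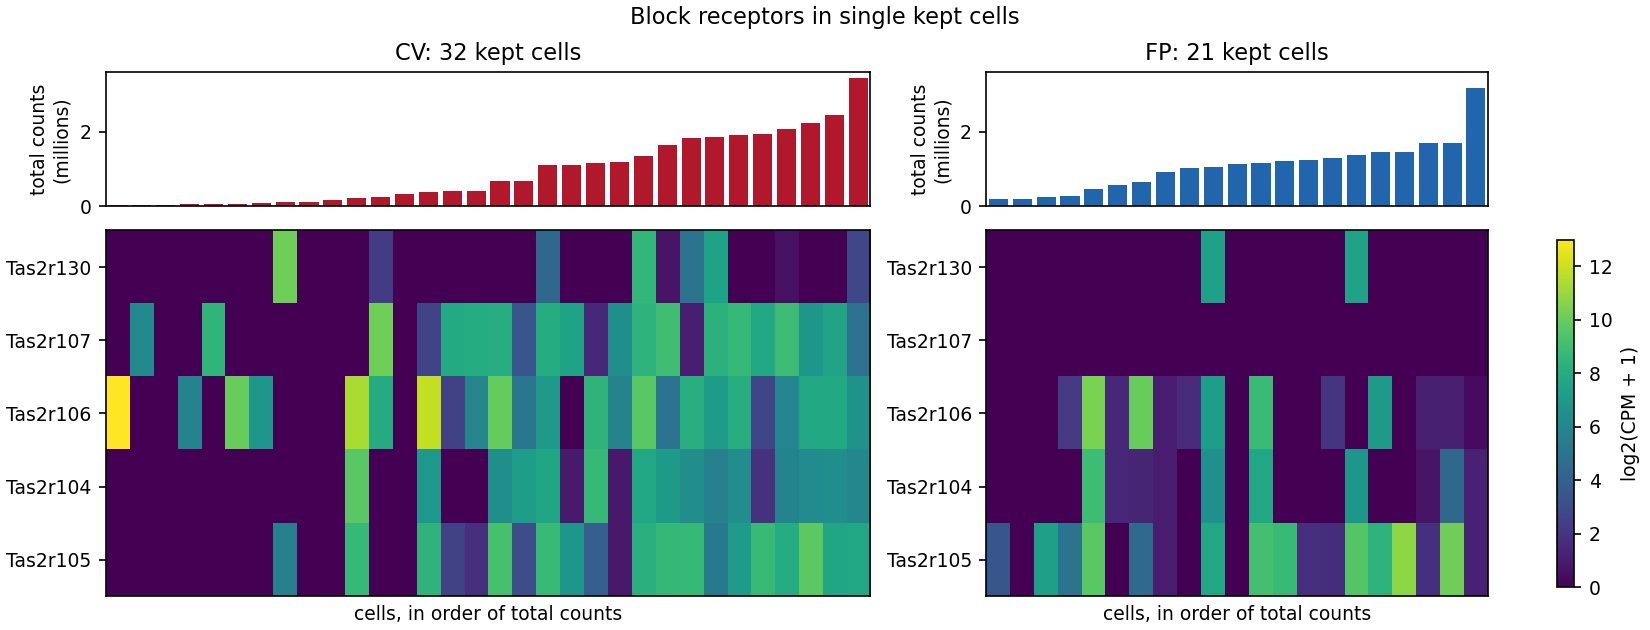
Level of the 5 members in each kept cell on log2(CPM + 1) (colour), with CV and FP cells ordered by total counts (bars). Members appear together in the deep CV cells on the right, Tas2r107 is blank in all 21 FP cells, and the shallow CV cells on the left have at most 1 member on.

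Several members were often on in the same cell. At least 2 members were on in 19 of 32 CV cells (59.4%, 40.6 to 76.3) and 5 of 21 FP cells (23.8%, 8.22 to 47.2), and at least 3 in 13 CV cells (40.6%) and 4 FP cells (19.05%). All 5 were on in 1 CV cell, of 1350869 counts, which belonged to the adjoining run. No doublet caller was run, the cells being so few.

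The number of members on moved with depth, as the heat map by cell and the plot against total counts show. Of the 10 CV cells below 193718 counts, 7 had exactly 1 member on and 0 had more. Among those 7, the cells of 54413, 62797, 98657 and 121188 counts belonged to the adjoining run, and one of 42809 counts had 79.0% ribosomal RNA. Of the 8 CV cells from 193718 to 1000000 counts, 5 had at least 2 on. All 14 CV cells of 1000000 counts or more had at least 2 on and 10 had at least 3. FP cells of the same depth held fewer: of 13 such cells 7 had at least 1 member on, 4 at least 2 and 3 at least 3. When every cell was thinned to 71770 counts and a member was called from 3 counts, the median was 2.5 members over 26 CV cells and 1 over 21 FP cells. At that depth 20 of 26 CV cells and 5 of 21 FP cells had at least 2, and 6 shallower CV cells were left out.

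**Figure D3:**
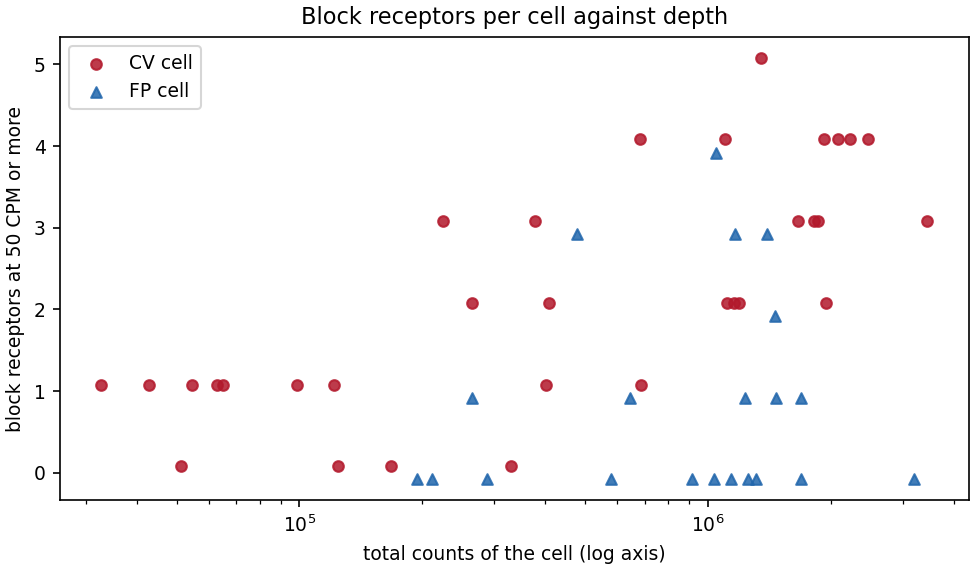
Number of the 5 members at 50 CPM or more in each kept cell against its total counts on a log axis, for CV and FP cells (points set slightly apart by library). CV cells of 1000000 counts or more have 2 to 5 members on, while FP cells of that depth have 0 to 4.

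Which members came together was uneven. In CV the most frequent set was Tas2r107, Tas2r106, Tas2r104 and Tas2r105, in 6 cells, and the same set without Tas2r107 came in 4. Tas2r106 stood alone in 4 CV cells, Tas2r107 alone in 3, and those 2 together without the others in 3. The cells with Tas2r106 alone were shallow, at 32726, 54413, 65049 and 98657 counts, and those of 54413 and 98657 belonged to the adjoining run. Of the cells with Tas2r107 alone, one of 62797 counts belonged to the run. Another, of 42809 counts, had 3 counts of Tas2r107 and 79.0% ribosomal RNA. In FP the most frequent set was Tas2r105 alone, in 4 cells, and Tas2r106, Tas2r104 and Tas2r105 were together in 2 cells, while 11 had no member on.

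Tas2r104 and Tas2r105, the closest pair, had the highest correlation in CV but not in FP. In CV, Tas2r105 was on in 12 of 14 cells with Tas2r104 (85.7%) and in 2 of 18 without it (11.1%), and Pearson's r of log2(CPM + 10) was 0.703 over 32 cells. In FP, Tas2r105 was on in all 4 cells with Tas2r104 but Tas2r104 in only 4 of 9 cells with Tas2r105, with r of 0.581 over 21 cells. Among CV cells of 1000000 counts or more the share of Tas2r104 cells with Tas2r105 was 90.0%, and in thinned cells 86.7%. The pair shares the longest identical transcript run printed above, and its part in the coupling was not tested.

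Tas2r106 followed Tas2r104, its neighbour on the other side. In CV, Tas2r106 was on in 12 of 14 cells with Tas2r104 and Tas2r104 in 12 of 20 cells with Tas2r106 (r 0.537). In FP the counts were 3 of 4 and 3 of 5 (r 0.628). Tas2r106 and Tas2r105 were both on in 11 CV cells, of 20 and 14 (r 0.354), and in 4 FP cells, of 5 and 9 (r 0.356). The CV value lay below the median r of Tas2r105 with all genes compared further below (0.392). It lay above the same CV median for Tas2r106 (0.0400). In FP the value lay above the Tas2r105 median of 0.0782.

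Tas2r107 shared CV cells with the others, but Tas2r106 and Tas2r104 were on nearly as often without it, and its level did not follow theirs closely. It was on with Tas2r106 in 11 of 17 cells (r -0.0596), with Tas2r104 in 8 of 17 (r 0.118) and with Tas2r105 in 10 of 17 (r 0.340). In the 15 CV cells without Tas2r107, Tas2r106 was on in 9 (60%), Tas2r104 in 6 (40%) and Tas2r105 in 4 (26.7%). The r of 0.340 lay below the Tas2r105 median of 0.392 and above the same median for Tas2r107 (0.303). Tas2r130 had r of 0.00658 to 0.192 with the others in CV, where most of its cells belonged to the adjoining run. In FP its 2 cells also had Tas2r104 and Tas2r105 on (r 0.490 and 0.310).

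**Figure D4:**
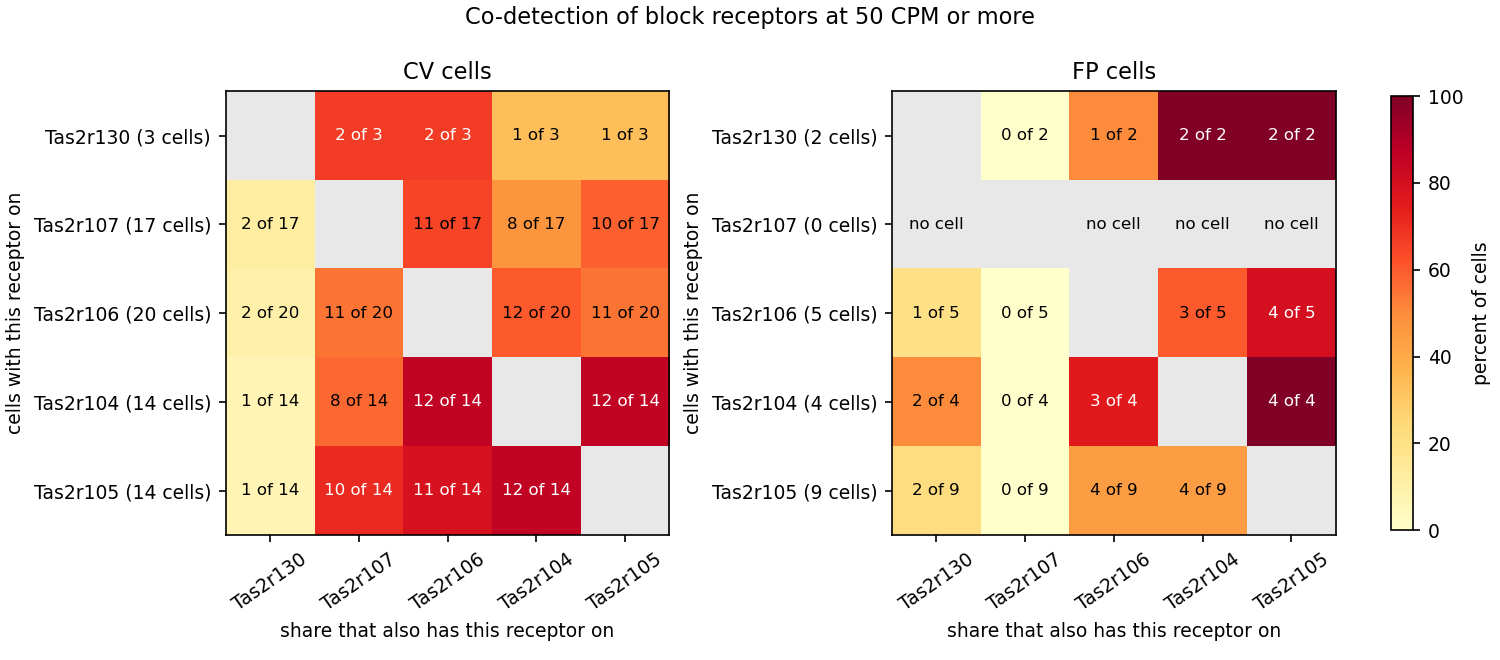
For each receptor on in a cell (rows), the share of those cells that also had another receptor on (columns), at 50 CPM or more, with the cell counts printed, for CV and FP. The darkest squares in CV (85.7%) are the Tas2r104 row with Tas2r105 and with Tas2r106, and the Tas2r105 row with Tas2r104. No FP cell had Tas2r107.

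Over the 10 pairs in CV, r was highest for the pairs 787 and 5949 bases apart, as the plot against distance shows. Both hold Tas2r104. Tas2r106 and Tas2r105, 7645 bases apart, had 0.354, close to the 0.340 of Tas2r107 and Tas2r105, 26382 bases apart. All pairs 17810 bases or more apart had 0.340 or less. In FP there was no such order over its 6 pairs: the pair 5949 bases apart had the highest r (0.628), and Tas2r130 and Tas2r104, 53923 bases apart, had 0.490. The cells of a pair share 1 library, and depth differs between them: r with log2 total counts over CV cells was 0.705 for Tas2r105, 0.583 for Tas2r104, 0.508 for Tas2r107, 0.120 for Tas2r130 and 0.110 for Tas2r106. Its part in these correlations was not tested.

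**Figure D5:**
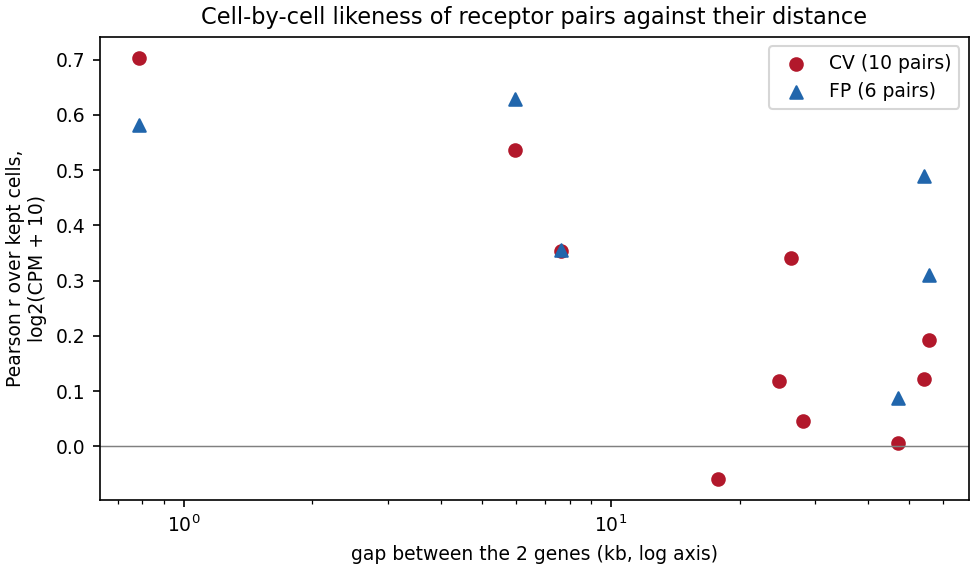
Pearson's r over kept cells of each pair of members against the gap between the genes (kb, log axis), for 10 CV pairs and 6 FP pairs without Tas2r107. The closest pair, 787 bases apart, stands at 0.703 in CV and 0.581 in FP, and the CV pair 17810 bases apart at -0.0596.

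Single cells also showed members apart at high counts. One FP cell had 2635 counts of Tas2r105 (1794 CPM) and 0 of each other member. One CV cell of 32726 counts had 266 counts of Tas2r106 (8128 CPM) and none of the other members, and another had 138 counts of Tas2r130 (1139 CPM) with Tas2r107, Tas2r106 and Tas2r104 at 0. No CV cell with Tas2r104 on lacked a count of Tas2r105 or Tas2r106, though 1 held only 5 counts of Tas2r105 (7.28 CPM), below the on level. Depth differed as well: Tas2r104 was on in 0 of the 10 CV cells below 193718 counts. Both CV cells named above, of 32726 and 121188 counts, were among those 10, and the one of 121188 counts belonged to the adjoining run.

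The number of other bitter receptors on differed with the number of members on. In CV the median number of other Tas2r genes on was 0 in the 4 cells with no member, 1 in the 9 cells with 1, 2.5 in the 6 cells with 2, 4.5 in the 6 cells with 3 and 7 in the 6 cells with 4, but 3 in the 1 cell with all 5. These classes also differed in depth, with median totals of 145832 counts for no member and 2001853 for 4. In FP the single cell with 4 members on had 9 other Tas2r genes on, the 1 cell with 2 had 0, the 5 cells with 1 had a median of 1, and the 11 cells with none had a median of 0.

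Among other Tas2r genes, the patterns most like each member over CV cells were these. Tas2r104 and Tas2r105 came first for each other, followed for both by Tas2r117 (r 0.598 with Tas2r104 and 0.636 with Tas2r105). Tas2r106 was nearest to Tas2r104, then to Tas2r121 (0.369). For Tas2r107 the nearest were Tas2r125 (0.461), Tas2r109 (0.452) and Tas2r108 (0.442), all outside the block. For Tas2r130 they were Tas2r108 (0.405), Tas2r121 (0.368) and Tas2r135 (0.325). Most CV cells with Tas2r130 on belonged to the adjoining run, and r without the run was not taken. In FP, Tas2r105 was nearest to Tas2r110 (0.600), then Tas2r104 (0.581) and Tas2r113 (0.492).

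The genes of any kind most like a member were taken among those on in at least 25% of cells, 2231 or 2232 genes in CV and 2721 in FP. For Tas2r105 in CV they were H2afz, the histone variant H2A.Z (r 0.828), Hp1bp3, a heterochromatin protein (0.795), Tcea1, a transcription elongation factor (0.784), and Reep5, an endoplasmic reticulum shaping protein (0.774). The median over all eligible genes was 0.392. These 4 genes also followed depth, with r of 0.672 to 0.796 with log2 total counts, and its part was not tested. In FP, where that median was 0.0782, other genes led: Pcbp4, an RNA-binding protein (0.698), Bpgm, bisphosphoglycerate mutase (0.679), Ptprn2, a dense-core vesicle protein (0.673), and Msl1, a chromatin complex subunit (0.673).

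For Tas2r104 in CV the 4 genes were Serp1, a translocon-associated protein (0.812), Lamtor1, a lysosomal anchor of Ragulator (0.770), Kctd20 (0.765) and Pygl, a glycogen phosphorylase (0.744), against a median of 0.312. Their r with log2 total counts was 0.570 to 0.622. For Tas2r106 the first 3 were Malat1, a nuclear noncoding RNA (0.657), Lrrc7 (0.645) and the nuclease Dclre1c (0.577), against a median of 0.0400. For Tas2r107 they were Abhd14b (0.737), Ctla2a (0.678), Cdadc1 (0.675) and Erlec1, a lectin of the endoplasmic reticulum (0.672), against a median of 0.303. For Tas2r130, on in 3 cells, they were Smarcc2, a chromatin remodelling subunit (0.772), Slc25a25, a mitochondrial carrier (0.769), the sorting nexin Snx6 (0.729) and Ankrd13a (0.714), against a median of 0.0621. Most of those 3 cells belonged to the adjoining run, and r without the run was not taken. All kept cells share 1 library per papilla, and the values describe them with no test.

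Downstream of the receptors, most transduction genes were near the same level in both papillae. Of 23 listed bitter transduction genes 16 reached 10 CPM in one of the libraries. Their median log2 ratio was 0.01: past 2-fold on the CV side were 3, past it on the FP side 0, and 13 lay between. Over all 10918 genes these shares were 21% and 17%, so the 3 are near the background. The G protein subunits were abundant in both, with Gnat3 at 4372 CPM for CV against 5223 CPM for FP, and Gng13 at 3561 CPM for CV against 3334 CPM for FP. Plcb2, phospholipase Cβ2, had 2129 CPM in CV and 2930 in FP, and Trpm5 had 1783 in CV and 1952 in FP. The 3 higher in CV were Ric8b, an exchange factor and chaperone of G protein α subunits, with 139 CPM in CV and 40.8 in FP, the sodium channel Scn2a with 70.8 and 9.05, and the ATP release channel Calhm1 with 12.02 and 0.309. Calhm1 was on in 1 CV cell and 0 FP cells.

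Of the sweet and umami receptors, pooled Tas1r1 was lower in CV, with 73.9 CPM in CV and 614 in FP, while Tas1r2 (16.5 in CV and 26.8 in FP) and Tas1r3 (99.2 in CV and 132 in FP) were within 2-fold. By cells Tas1r1 was on in 8 of 32 in CV and 3 of 21 in FP, where it reached 5800 CPM in 1 cell. Of 9 type II regulators at 10 CPM, the transcription factor Spib was at least 2-fold higher in CV (102 CPM in CV and 33.7 in FP), and Etv1 (5.62 in CV and 59.6 in FP) and Ascl2 (153 in CV and 513 in FP) were lower, beside 21% higher and 17% lower over all genes. Pou2f3, the factor that type II cells require, had 350 CPM in CV and 404 in FP.

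Within FP, cells with a member on could be set against those without. Tas1r1, the umami subunit, was on in 0 of 10 cells with a member on and in 3 of 11 without, and Tas1r2, the sweet subunit, in 0 of 10 and 2 of 11. Tas1r3, the subunit both receptors share, was on in 3 of 10 and 5 of 11. The 3 cells with a member and Tas1r3 all had Tas2r105 on, but so did 9 of the 10 cells with a member. Tas1r3 was on in 3 of 9 FP cells with Tas2r105 on and in 5 of 12 without it. These numbers of cells are small, and the cells come from 1 library. Median Gnat3 was 5818 CPM in FP cells with a member on and 3639 CPM in those without, and median total counts were 1198687 and 1034969.

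Tas1r genes were also on beside members in CV. With a member on, 8 of 28 CV cells had Tas1r1 on, 4 had Tas1r2 and 7 had Tas1r3. By member, Tas1r3 was on in 5 of 20 cells with Tas2r106, 4 of 17 with Tas2r107, 4 of 14 each with Tas2r104 and Tas2r105, and 0 of 3 with Tas2r130. The 4 CV cells with no member on had none of the 3 Tas1r genes on, but their median total was 145832 counts and their median mitochondrial share 52.1%, against 893560 counts and 11.99% in the 28 cells with one. The state of those 4 cells and the absence of receptors cannot be told apart here.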

How the data were processed

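Single-cell RNA-seq was deposited as 1 table per library, each holding whole-number counts per gene and barcode that were not normalized, as the deposited values themselves show. The authors list Bowtie2 2.3.4.1, cutadapt 2.10 and Seurat 2.3.4, and the genome build mm10, per the submitters' processing notes. The series design names alignment to mouse reference RNA, DropletUtils and a correction of counts for sequencing errors. If and how molecular barcodes were collapsed, and how reads matching several genes were assigned, are not given in the sources used here. Counts may hold PCR copies, so that intervals are too narrow.

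Cells with more than 500 genes and Gnat3 above 0.9 on the natural log scale were kept and pooled per library as CPM. The stated limits on mitochondrial and ribosomal RNA can be read in several ways and were applied only as an alternative. Genes missing from one table were taken as 0 there. Sums carry exact Poisson, ratios conditional binomial and shares Clopper-Pearson 95% intervals, and floors use 3 counts or 3 cells. Ratios are on log2(CPM + 10). The on level of 50 CPM is looser in shallow cells.

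The members, gene lists, markers and on level were chosen with earlier results of these data known. Named besides the members were, for each, the 4 genes with the highest Pearson's r over kept CV cells (for Tas2r105 also FP cells), the 3 most like Tas2r genes on in 3 or more cells, the 3 highest Tas2r genes outside the block, and list members with at least 10 CPM. One gene that met this rule is not reported here. Transcripts (GENCODE M21) were aligned globally with Biopython 1.88. The bases shown before each start came from RefSeq (GRCm38.p6) windows. Pandas 2.3.3, NumPy 2.4.6 and SciPy 1.17.1 were used under Python 3.11.15. The ratio and likeness steps were tested on simulated data. Alternatives covered the pseudocount, pooling, cell filters, depth and the on level. Hashtag libraries were not analysed here.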

Additional observations from a re-analysis of the deposited data

Results flagged for a closer look

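Members of the block were also on in barcodes that the Gnat3 limit left out, data that none of the comparisons above use, and each is given here because it stood above the level in barcodes rich in keratin (at most 4.96 CPM). Of 24 such CV barcodes 5 had a member on. One of 46257 counts had 7112 CPM of Tas2r105 and 3675 CPM of Tas2r106, and one of 45614 counts had 3530 CPM of Tas2r106. One of 45673 counts, which belonged to the adjoining run, had 679 CPM of Tas2r130. Tas2r107 reached 1295 CPM in one of 112716 counts and 180 CPM in one of 161045 counts, whose mitochondrial shares were 92.7% and 93.2%. Of 8 left-out FP barcodes 1 had members on. It had 252069 counts, of which 66.0% were mitochondrial, and held Tas2r104 at 2610 CPM, Tas2r105 at 1571 CPM and Tas2r106 at 1400 CPM, with Gnat3 at 67.4 CPM. Its Tas2r104 level was above the 497 CPM of the highest kept FP cell. Their low Gnat3 counts and low totals move with this, and their part was not tested.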

How the results depend on the processing

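The summed block ratio (log2 0.78) stayed above 0 in 14 of 14 alternatives. It was 0.73 with a pseudocount of 50, 1.08 for the mean of single-cell CPM, 0.94 with no Gnat3 limit, 1.001 without the cell highest in block counts and 0.92 after thinning. The 2297 genes at least 2-fold higher in CV became 429 with a pseudocount of 50. The CV share with a member on (87.5%) was 58.9% with no Gnat3 limit. The CV share with at least 2 on (59.4%) was 35.7% with no Gnat3 limit, 82.6% above 2000 genes and 76.9% after thinning. The FP share with a member on (47.6%) was 90.5% at 1 count and 71.4% at 3 counts, and with at least 2 on (23.8%) 61.9% at 1 count. Reading the Gnat3 limit in base 3 kept the same numbers of cells. Alternatives chosen after seeing the data gave a block ratio of 0.69 without the adjoining run, and 0.72 in cells of 1000000 counts or more, where 100% of CV cells had at least 1 and at least 2 members on. At least 2 were on in 86.4% of CV cells at least as deep as the shallowest FP cell. Over 14 alternatives log2 ratios ran from 2.40 to 7.74 for Tas2r107, 1.08 to 1.98 for Tas2r106, 0.70 to 1.41 for Tas2r104, -0.83 to -0.11 for Tas2r105 and -0.16 to 1.36 for Tas2r130. No paired analysis was possible because each papilla has 1 library. The causes of these shifts were not tested. Shallow CV cells limit what co-detection can show.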
